A study of Homo sapiens with 8 samples.

Results

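Histone H3 lysine 27 acetylation (H3K27ac) was examined around 10 inflammatory genes: the chemokine genes CXCL1, CXCL2, CXCL3, CXCL5, CXCL8 and CCL20, the cytokine genes IL6 and LIF, and the NF-kB inhibitor genes NFKBIA and TNFAIP3. They were taken as a named set, and every peak within the gene body (GENCODE, hg38) and 30 kb to either side was collected. The 5 CXCL genes lie in 1 cluster on chromosome 4 and were treated as a single locus, which gave 6 loci. The loci held 72 of the 143733 intervals obtained by merging the peaks of all libraries, and 26 of these were among the 34864 intervals that could be tested.

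The libraries came from HCEC-1CT, a line of human colonic epithelial cells (HCECs) immortalised with CDK4 and telomerase. No stimulus is named in the labels, and the culture medium given in the methods contained serum, EGF, insulin and hydrocortisone. H3K27ac was profiled by ChIP-seq in 3 wild-type (WT) libraries of parental cells and 3 libraries of cells knocked out for CREBBP, which encodes the lysine acetyltransferase CBP (CREBBP-KO, genotype CBP KO in the labels). The knockout was made with doxycycline-inducible Cas9 and a synthetic guide RNA. The methods call the knockout cells monoclonal in 1 place and describe pooled clones in another, so a trait of 1 clone and loss of CREBBP cannot be told apart. The labels number the libraries 1 to 3 in each genotype, and the methods do not say whether each came from a separate cell population. The 1 input library per genotype was not analysed here.

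NF-kB is a family of dimeric transcription factors held in the cytoplasm by IkB proteins. Signals from cytokine and pattern recognition receptors activate the IkB kinase, IkB is degraded, and the dimers bind kappaB sites in chemokine and cytokine genes. CBP and its paralogue p300 are recruited to such sites as coactivators and acetylate the surrounding histones, H3K27 included, and NFKBIA and TNFAIP3 are themselves induced and shut the signal off again.

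Every value below is either the deposited fold of a peak, which is its enrichment over local background as called by MACS2, or the percentile of that fold within the list of its own library. The WT lists held 86163 to 93567 peaks and the CREBBP-KO lists 99008 to 111697. A percentile also depends on how many weak peaks its list holds, and the median percentile of all tested intervals ranged from 79.1 to 80.7 among WT libraries and from 82.0 to 83.7 among CREBBP-KO libraries. Genotypes were therefore compared by the shift, the difference in the normal score of the rank among tested intervals (CREBBP-KO minus WT, limma, Benjamini-Hochberg adjustment over all 34864). Read counts are not part of these lists, and the depth of each library behind them is not known. The CREBBP promoter itself was acetylated in both genotypes, which is no check of the knockout. Its percentile was 94.8 to 98.6 over WT libraries and reached 98.8 to 99.3 over CREBBP-KO libraries, and it was called higher (shift 0.46, SE 0.18, limma, adjusted p = 0.047).

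The epithelial label was checked against promoter peaks of marker genes. Of 6 epithelial markers, EPCAM and KRT8 had a promoter peak in all 6 libraries and KRT18 in 5, whereas CDH1, KRT19 and CLDN4 had none. The WT percentiles of KRT8 and KRT18 were the same (53.3, 57.7 and 32.9), so these genes may share peaks. Median percentiles were 58.6 for KRT8, 53.3 for KRT18 and 14.0 for EPCAM. The intestinal genes CDX1, CDX2 and VIL1 also had no promoter peak, and LGALS4 had one in the 3 WT libraries (percentiles 52.5, 47.9 and 45.3) and in 0 CREBBP-KO libraries. In contrast, the mesenchymal genes VIM, COL1A1 and PDGFRB had one in all 6 libraries, at median percentiles of 95.6 to 99.4. Of 6 leukocyte markers 4 had no promoter peak, CD14 (median percentile 46.3) had one in all 6 libraries and CSF1R in 5. Of the 3 endothelial markers, CDH5 and TEK had none, and PECAM1 had one in the CREBBP-KO libraries alone (percentiles 12.5, 39.6 and 15.9). The percentiles of several markers differed between the genotypes. EPCAM stood at percentiles of 0.175, 7.27 and 8.36 in WT and 46.1, 35.6 and 19.7 in CREBBP-KO. CSF1R stood at 13.1 and 27.4 in the WT libraries that had a peak and at 70.02, 70.4 and 67.1 in CREBBP-KO. VIM, COL1A1 and PDGFRB were also higher in every CREBBP-KO library than in any WT library, as were 34.2% of all tested intervals. No shift is given for these markers. The part of these markers in the results was not tested.

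Promoter sequences of 9 of the 10 genes were matched in RefSeq (GRCh38.p14). The stretches from 150 to 45 bases before the start are shown for 6 of them, because the 3 genes CXCL1, CXCL2 and CXCL3 share most of their proximal promoter yet differed in acetylation, and CCL20, IL6 and CXCL8 are the most acetylated, an intermediate and the least acetylated member. Capitals mark matches on either strand to the kappaB consensus, the shorter NF-kB motif GGNNTTNCC or the AP-1 motif TGANTCA. The kappaB consensus and GGNNTTNCC overlap each other by design.
CXCL1 promoter, chr4:73869243-73869348 (+): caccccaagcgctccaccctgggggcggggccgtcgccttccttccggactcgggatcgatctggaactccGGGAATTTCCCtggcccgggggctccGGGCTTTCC
CXCL2 promoter, chr4:74099240-74099345 (-): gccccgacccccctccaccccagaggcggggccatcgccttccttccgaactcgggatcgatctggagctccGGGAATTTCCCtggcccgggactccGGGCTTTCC
CXCL3 promoter, chr4:74038734-74038839 (-): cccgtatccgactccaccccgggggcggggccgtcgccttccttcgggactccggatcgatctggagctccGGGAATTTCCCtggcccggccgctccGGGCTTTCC
CXCL8 promoter, chr4:73740419-73740524 (+): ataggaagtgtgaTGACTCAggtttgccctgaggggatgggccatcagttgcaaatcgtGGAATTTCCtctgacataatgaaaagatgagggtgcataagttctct
CCL20 promoter, chr2:227813692-227813797 (+): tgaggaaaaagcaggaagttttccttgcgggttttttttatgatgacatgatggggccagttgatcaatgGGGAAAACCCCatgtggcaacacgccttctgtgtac
IL6 promoter, chr7:22727050-22727155 (+): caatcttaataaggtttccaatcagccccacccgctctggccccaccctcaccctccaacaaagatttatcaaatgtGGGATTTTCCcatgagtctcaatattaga

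In the 250 bases before the start, the kappaB consensus was found in 8 of the 9 promoters, against 9.96% of 35116 RefSeq promoters searched over the same length. GGNNTTNCC was found in 9 of 9, against 15.0% of all promoters. The genes were named as NF-kB, chemokine and cytokine genes, so high shares of such sites may follow from that choice and are no result of these libraries. CXCL8 was the member with the shorter motif alone, and it was also the only one with TGANTCA, which 6.57% of all promoters held. TATAAA was present in CXCL8, CCL20 and NFKBIA, against 10.7% of all promoters. In global alignments of these 250 bases, gaps left out, CXCL1 matched CXCL2 at 197 of 219 aligned bases and CXCL3 at 210 of 242, and all 3 carried the same pair of GGAATTTCC and GGGCTTTCC matches. Of the 50-base windows of the CXCL1 promoter interval, 1.32% recurred exactly in that of CXCL2 and 0.166% in that of CXCL3. How reads with several matching places were handled is not given in the sources used here. Of the 300-base stretches around the highest summits of the 26 tested member intervals, 15.4% held the kappaB consensus. Over the summits of all tested intervals the share was 10.2%.

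All 10 promoters carried a peak in all 6 libraries, where a promoter interval is the merged interval within 1 kb of a protein-coding start. In WT cells their mean percentiles ran from 99.8 for CCL20 to 48.6 for CXCL8. Ranges of neighbouring genes in this order were separate only between CCL20 and CXCL2 and between NFKBIA and LIF, which sets CCL20 at the top, CXCL2, CXCL3 and NFKBIA in a second group, and LIF, IL6, CXCL5, CXCL1, TNFAIP3 and CXCL8 below. The place of CCL20 rests on a broad interval whose summit lay 3855 to 4118 bp downstream of the start, so it is not a value of the start itself. In CREBBP-KO cells the order began with CCL20, CXCL2, NFKBIA and CXCL3, followed by LIF, IL6 and CXCL1, then CXCL5 and TNFAIP3, and ended with CXCL8. Here the ranges were separate between CCL20 and CXCL2, CXCL3 and LIF, CXCL1 and CXCL5, and TNFAIP3 and CXCL8.

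Of the 26 tested intervals, 8 were higher in CREBBP-KO and 5 lower at an adjusted p under 0.05 (limma), and 13 were not called. The shares were 30.8% and 19.2%, and over all tested intervals 18.6% were called higher and 18.7% lower. The percentiles of the genotypes did not overlap for 10 intervals that were higher (all tested intervals, 34.2%) and 5 that were lower (15.2%). The median shift was 0.13 over the members and 0.02 over all tested intervals, and the median size of the shift was 0.52 against 0.43. Intervals of the set were thus called in both directions.

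To be tested, an interval needed a fold of at least 5 in all 3 libraries of a genotype and a peak in all 6. An interval without a peak in some library, such as an outright loss or gain, could therefore not be tested. Of the 26 intervals, 6 met the fold condition in CREBBP-KO alone and 5 of these were called higher, and 2 met it in WT alone and 1 of these was called lower. Such intervals had to differ to some degree, and over all tested intervals 49.2% of the 4884 that met it in CREBBP-KO alone were called higher and 64.4% of the 3721 that met it in WT alone were called lower. Of the 18 that met it in both genotypes, 3 (16.7%) were called higher and 4 (22.2%) lower, where 15.5% and 15.8% of the 26259 comparable intervals were. Calls were found at 3 of the 9 tested promoters, 2 higher and 1 lower, and among 10090 tested promoter intervals of protein-coding genes 26.8% were called higher and 8.32% lower. The lower one was the CCL20 interval, whose highest summit lay beyond the gene. Calls were also found at 10 of the 17 distal intervals, 6 higher and 4 lower, and 6 of these 10 met the fold condition in 1 genotype alone. Of the 23294 tested intervals without a protein-coding start within 1 kb, 14.9% were called higher and 23.6% lower.

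**Figure D1:**
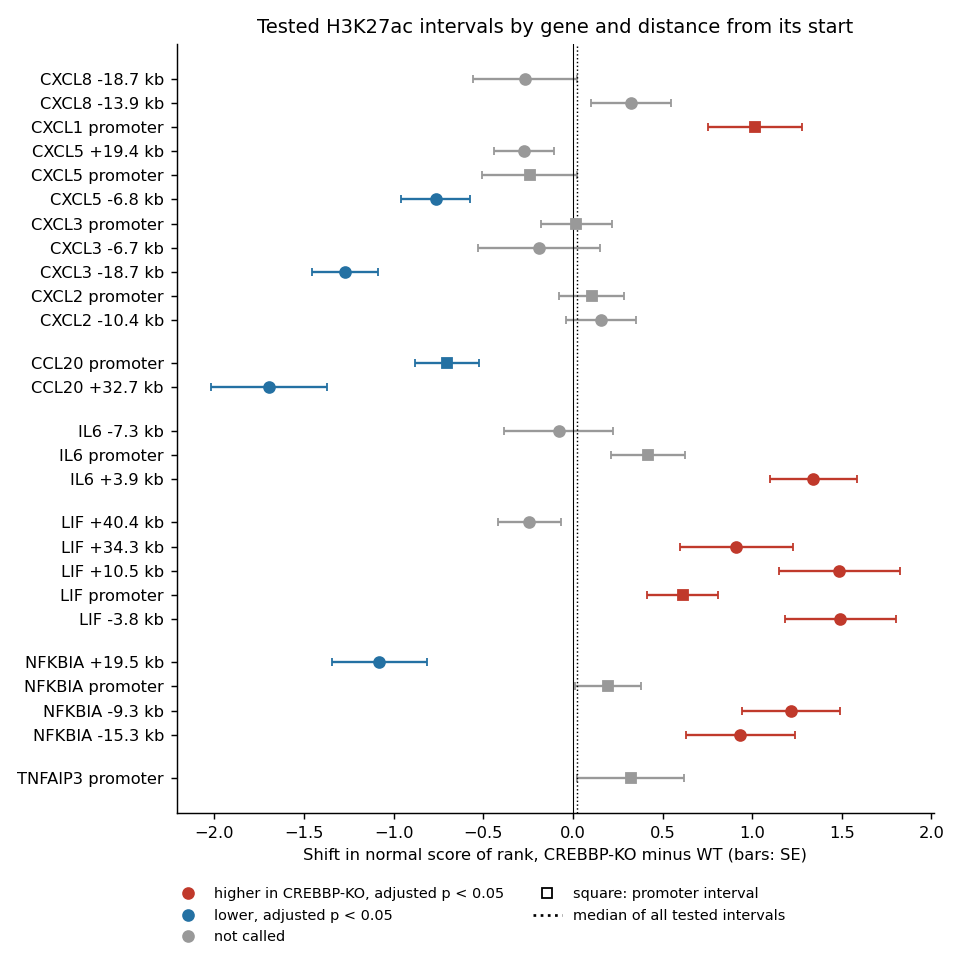
Shift of each tested interval (horizontal axis, normal score of rank, CREBBP-KO minus WT, bars SE), named by the nearest member gene and the distance of its highest summit from the gene's start; squares are promoter intervals and the dotted line is the median of all tested intervals. The LIF intervals apart from the outermost one lie to the right, the CCL20 intervals to the left, and the CXCL and NFKBIA loci hold calls on both sides.

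CXCL1 (ENSG00000163739.5), a ligand of the neutrophil receptor CXCR2, was the promoter with the greatest shift among the 9 tested. Its promoter interval (chr4:73868688-73872361) had folds of 5.28, 7.60 and 5.41 in the WT libraries and 10.3, 11.3 and 9.24 in the CREBBP-KO libraries. The percentiles were 61.0, 75.3 and 60.9 in WT and 86.3, 86.7 and 81.0 in CREBBP-KO. Every CREBBP-KO library was above every WT library, and the second WT library stood above the other two. The shift was 1.01 (SE 0.26), with an adjusted p of 0.00461 (limma). With ranks by -log10 p in place of fold, it was 0.60 (limma, adjusted p = 0.0224). The highest summit lay within 109 bp of the start in every library. The kappaB sites shown above fall within this peak.

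The promoters of CXCL2 (ENSG00000081041.9) and CXCL3 (ENSG00000163734.4), which encode close relatives of CXCL1 acting on the same receptor, were among the strongest in both genotypes. For CXCL2 (chr4:74096759-74101017) the folds were 21.0, 15.0 and 18.3 in WT and 18.5, 22.3 and 24.5 in CREBBP-KO. For CXCL3 (chr4:74030496-74040374) they were 12.8, 15.4 and 19.2 in WT and 14.6, 19.1 and 20.8 in CREBBP-KO. The genotypes overlapped at both promoters. Shifts were 0.10 (SE 0.18) for CXCL2 and 0.02 (SE 0.20) for CXCL3, and neither was called (limma, adjusted p = 0.672 and 0.95). A test of the difference in shift between CXCL1 and these neighbours was not run.

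CXCL5 (ENSG00000163735.7), another CXCR2 ligand, had promoter folds of 7.34, 9.27 and 6.06 in WT and 7.53, 6.51 and 6.73 in CREBBP-KO, which overlapped (shift -0.24, SE 0.27, limma, adjusted p = 0.496). CXCL8 (ENSG00000169429.12), which encodes interleukin-8, had the weakest promoter of the set. Its percentiles were 70.2, 31.1 and 44.6 in WT and 33.7, 66.1 and 27.9 in CREBBP-KO, with folds between 3.15 and 6.59. It was below the fold filter and was not tested, and its percentiles spread widely within both genotypes (SD 19.9 and 20.6). The exact permutation test of the percentiles gave p = 0.6, where 0.1 is the smallest p that 3 libraries against 3 allow.

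The most significant change among the 26 tested intervals was distal. An interval at chr4:74055506-74058626, 18.7 kb upstream of CXCL3 and at the start of the long non-coding RNA gene PPBPP2, had folds of 16.4, 18.1 and 15.7 in WT and 7.45, 10.1 and 10.6 in CREBBP-KO. In percentiles it stood at 95.2, 97.2 and 94.3 in WT and at 78.2, 84.1 and 84.4 in CREBBP-KO. In WT it was thus in the range of the promoters of CXCL2 and CXCL3 that flank it, and in every CREBBP-KO library it was below both of them. The shift was -1.27 (SE 0.19, limma, adjusted p = 3.8e-05), and it was the 1 interval of the 26 past an adjusted p of 0.0001. Among intervals with a fold of at least 10 it was -2.21. It entered that set through the WT libraries alone and had to differ there to some degree, so that value adds no support. The 300 bases around its highest summit are printed because they mark the place of this loss, and they hold no match to the kappaB consensus, GGNNTTNCC or TGANTCA.
chr4:74057227-74057526 (+): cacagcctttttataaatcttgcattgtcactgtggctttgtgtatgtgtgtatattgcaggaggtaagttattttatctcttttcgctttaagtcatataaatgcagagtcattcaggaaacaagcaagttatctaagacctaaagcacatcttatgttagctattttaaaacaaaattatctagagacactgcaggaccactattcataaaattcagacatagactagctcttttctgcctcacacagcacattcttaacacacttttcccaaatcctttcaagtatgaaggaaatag

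A second lower interval (chr4:74003523-74007949) lay 6.8 kb upstream of CXCL5, within the long non-coding RNA gene ENSG00000287037. Its folds were 11.2, 14.6 and 13.4 in WT and 9.16, 8.97 and 9.57 in CREBBP-KO, again without overlap. The shift was -0.77 (SE 0.19, limma, adjusted p = 0.00356). When peaks were ranked by -log10 p in place of fold, it was -0.27 and was not called (limma, adjusted p = 0.22). Among intervals with a fold of at least 10 it was -1.51 (limma, adjusted p = 0.000433). The interval entered that set through the WT libraries alone and had to differ there to some degree, so that value adds no support. Between CXCL5 and CXCL3, an interval at chr4:74015561-74019155 had folds of 6.35, 7.77 and 5.40 in WT, and in CREBBP-KO a peak was called only in the third library, with a fold of 2.30. It passed the fold filter in WT and could not be tested for want of a value in the other 2 libraries.

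The remaining 5 tested distal intervals of the cluster were not called. At 13.9 kb upstream of CXCL8 the percentiles were 77.1, 76.7 and 70.8 in WT and 87.1, 81.7 and 79.6 in CREBBP-KO, without overlap, but the shift of 0.32 (SE 0.22) was not called (limma, adjusted p = 0.259). The strongest of them, 10.4 kb upstream of CXCL2, stood at mean percentiles of 95.1 in WT and 96.8 in CREBBP-KO. In the other 3 the genotypes overlapped. The mean percentile went from 70.8 to 71.2 at 18.7 kb upstream of CXCL8 (shift -0.27, SE 0.29) and from 91.8 to 89.98 at 19.4 kb downstream of CXCL5 (shift -0.27, SE 0.17). At 6.7 kb upstream of CXCL3, where the fold filter was met in WT alone, it was 65.7 in each genotype (shift -0.19, SE 0.34). Over the cluster, 34 intervals were found, 11 were tested, 1 was higher and 2 were lower. Within 1 Mb outside the cluster, 3 of 35 tested intervals were higher and 12 lower, and on the whole of chromosome 4 the shares were 14.2% and 26.8%. The lower distal intervals thus lie in a stretch, and on a chromosome, where lower calls were more frequent than over all tested intervals.

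CCL20 (ENSG00000115009.13) encodes the ligand of CCR6, which draws dendritic cells and lymphocytes to the gut epithelium, and it was the most acetylated member. The interval over its promoter (chr2:227812849-227822189) spans the main transcript and ends past the gene. The folds were 29.8, 28.8 and 29.8 in WT and 24.0, 28.1 and 25.1 in CREBBP-KO, and the percentiles were 99.7, 99.8 and 99.8 against 98.8, 99.2 and 98.6. All CREBBP-KO libraries were lower, though still at percentile 98.6 or above. The shift was -0.70 (SE 0.18, limma, adjusted p = 0.00397), and with ranks by -log10 p it was -0.38 (limma, adjusted p = 0.0469). The highest summit lay 3855 to 4118 bp downstream of the start in all 6 libraries, beyond the 3′ end of the gene, so these values are not of the start itself.

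Acetylation was also lower 32.7 kb downstream of CCL20 (chr2:227845773-227847553), where the folds were 10.3, 8.44 and 6.54 in WT and 5.23, 3.34 and 4.62 in CREBBP-KO. The genotypes did not overlap, and this was the largest negative shift of the 26 intervals (-1.70, SE 0.32, limma, adjusted p = 0.000432). It passed the fold filter through the WT libraries alone. A minor interval upstream of the main start, at chr2:227811711-227812678, had a peak in 3 WT libraries (folds 3.21, 3.04 and 4.42) and in 0 CREBBP-KO libraries. Peaks covered 11.2, 12.4 and 10.2 kb of the locus in WT and 8.83, 8.21 and 9.14 kb in CREBBP-KO (exact permutation test, p = 0.1, the smallest possible). In the neighbouring 1 Mb, 7 of 24 tested intervals were higher and 5 lower.

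**Figure D2:**
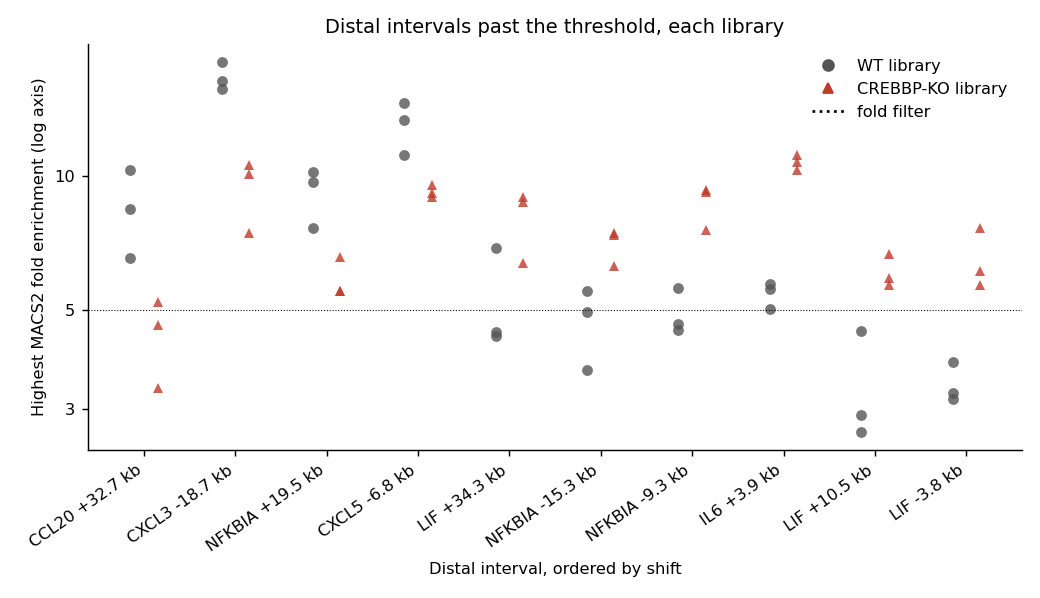
Highest fold of the 10 distal intervals past the threshold in each library (vertical log axis), ordered by shift and named by the nearest member gene and distance from its start; the dotted line is the fold filter of 5. The 4 intervals on the left were lower and the 6 on the right higher in CREBBP-KO, and at the LIF and NFKBIA intervals that were higher most WT libraries fell below the filter.

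IL6 (ENSG00000136244.12) encodes interleukin-6, an inflammatory cytokine that signals through gp130. Its promoter interval (chr7:22725815-22728666) had percentiles of 77.5, 77.8 and 76.2 in WT and 88.0, 82.1 and 88.2 in CREBBP-KO. The folds were 8.11, 8.16 and 8.02 against 11.1, 9.27 and 12.6. Every CREBBP-KO library was above every WT library, but the shift of 0.42 (SE 0.21) was not called (limma, adjusted p = 0.113).

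A second interval inside IL6, in an intron 3.9 kb downstream of the nearest start (chr7:22729608-22731986), was higher. It rose from folds of 5.73, 5.03 and 5.57 in WT to 11.2, 10.3 and 10.8 in CREBBP-KO, and from percentiles of 64.6, 58.7 and 62.0 to 88.1, 84.7 and 84.8. The libraries of each genotype lay close together and far from those of the other. The shift was 1.34 (SE 0.24, limma, adjusted p = 0.000282), or 0.72 with ranks by -log10 p (limma, adjusted p = 0.00627), and the interval passed the fold filter in both genotypes. Another tested interval, in an intron of STEAP1B 7.3 kb upstream, was not called (shift -0.08, SE 0.31, limma, adjusted p = 0.856). The locus held 4, 4 and 5 peaks in WT and 4 in each CREBBP-KO library, so the difference was one of fold and not of number.

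LIF (ENSG00000128342.5) encodes leukaemia inhibitory factor, a cytokine of the interleukin-6 family, and 4 of its 5 tested intervals were higher. Of these, the promoter met the fold filter in both genotypes and the other 3 in CREBBP-KO alone. Over all tested intervals 18.6% were called higher, and of those that met the filter in CREBBP-KO alone 49.2% were. At the promoter (chr22:30244793-30247876) the folds were 7.85, 8.15 and 8.79 in WT and 11.01, 11.9 and 14.9 in CREBBP-KO, and the percentiles 76.4, 77.8 and 79.3 against 87.7, 87.9 and 91.6. The groups did not overlap, and the shift was 0.61 (SE 0.20, limma, adjusted p = 0.0192). The call depended on single libraries: it was lost without the first WT library (shift 0.54, limma, adjusted p = 0.0558) and without the third CREBBP-KO library (shift 0.47, limma, adjusted p = 0.12). With ranks by -log10 p the shift was 0.31 and was not called either (limma, adjusted p = 0.128).

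Upstream of LIF by 3.8 kb, an interval at chr22:30248658-30253954 had percentiles of 41.3, 27.5 and 21.0 in WT and 79.1, 69.9 and 66.1 in CREBBP-KO (folds 3.82, 3.26 and 3.15 against 7.66, 6.11 and 5.68). Downstream by 10.5 kb, at chr22:30234820-30237050, they were 8.15, 52.0 and 13.3 in WT and 74.97, 67.3 and 67.4 in CREBBP-KO. The first was low in rank in every WT library and the second in 2 of them, and the groups did not overlap. The shifts were 1.49 (SE 0.31, limma, adjusted p = 0.000843) and 1.49 (SE 0.34, limma, adjusted p = 0.00176).

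The fourth, 34.3 kb downstream of the LIF start, had folds of 4.46, 6.91 and 4.36 in WT and 6.38, 8.76 and 9.00 in CREBBP-KO, so the second WT library overlapped on the fold scale but not in percentiles (72.0 against 73.2 and above). Its shift of 0.91 (SE 0.31, limma, adjusted p = 0.026) was not called without the first or the third WT library (limma, adjusted p = 0.0928 and 0.0736) or without the second or the third CREBBP-KO library (0.101 and 0.113). The fifth only touches the edge of the window, with its summit 40.4 kb away at the start of the long non-coding RNA gene ENSG00000225676, and it was strong in both genotypes (mean percentiles 97.6 and 96.9, not called). Outside the window, within 1 Mb, 12 of 45 tested intervals were higher and 5 lower. On the whole of chromosome 22 the shares were 24.8% and 10.6%, against 18.6% and 18.7% over all tested intervals.

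NFKBIA (ENSG00000100906.12) encodes IkBalpha, the inhibitor that retains NF-kB dimers in the cytoplasm. Its promoter (chr14:35400965-35405835) had folds of 13.9, 13.8 and 18.1 in WT and 15.6, 20.3 and 21.5 in CREBBP-KO, which overlapped (shift 0.20, SE 0.18, limma, adjusted p = 0.411). On the upstream side, 9.3 kb from the start (chr14:35412934-35416977), the folds were 4.64, 5.59 and 4.52 in WT and 9.23, 9.30 and 7.56 in CREBBP-KO. This interval was higher in every CREBBP-KO library (shift 1.22, SE 0.27, limma, adjusted p = 0.00167).

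Further upstream, 15.3 kb from the NFKBIA start, the folds were 5.51, 4.95 and 3.67 in WT and 7.45, 7.39 and 6.28 in CREBBP-KO. The shift of 0.93 (SE 0.30, limma, adjusted p = 0.0186) was not called without the third WT library (limma, adjusted p = 0.0592) or without the first or the second CREBBP-KO library (0.0834 and 0.0666). On the other side of the gene, 19.5 kb downstream of the start (chr14:35383498-35386428), the direction was opposite, with folds of 9.72, 7.66 and 10.2 in WT and 6.59, 5.52 and 5.51 in CREBBP-KO (shift -1.08, SE 0.26, limma, adjusted p = 0.00317). That shift was -0.69 without the fold filter (limma, adjusted p = 0.00777). The 2 upstream intervals passed the fold filter in CREBBP-KO alone and the downstream one in both genotypes. The locus held 6, 6 and 7 peaks in WT and 9, 9 and 8 in CREBBP-KO (exact permutation test, p = 0.1), and the mean difference of 2.33 peaks became 0 once weaker peaks, with a -log10 q under 5, were left out.

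TNFAIP3 (ENSG00000118503.18) encodes A20, a ubiquitin-editing enzyme that ends NF-kB signalling. The promoter was its 1 tested interval (chr6:137866409-137868148), with percentiles of 56.0, 63.7 and 73.0 in WT and 76.3, 71.4 and 73.8 in CREBBP-KO. The ranges overlapped and it was not called (shift 0.32, SE 0.30, limma, adjusted p = 0.408). An interval 26.8 kb downstream of the start, which failed the fold filter and was singled out after its values were seen, had percentiles of 30.9, 27.2 and 47.2 in WT and 57.4, 67.9 and 70.4 in CREBBP-KO. Without the filter its shift was 0.84 (SE 0.30, limma, adjusted p = 0.0448).

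**Figure D3:**
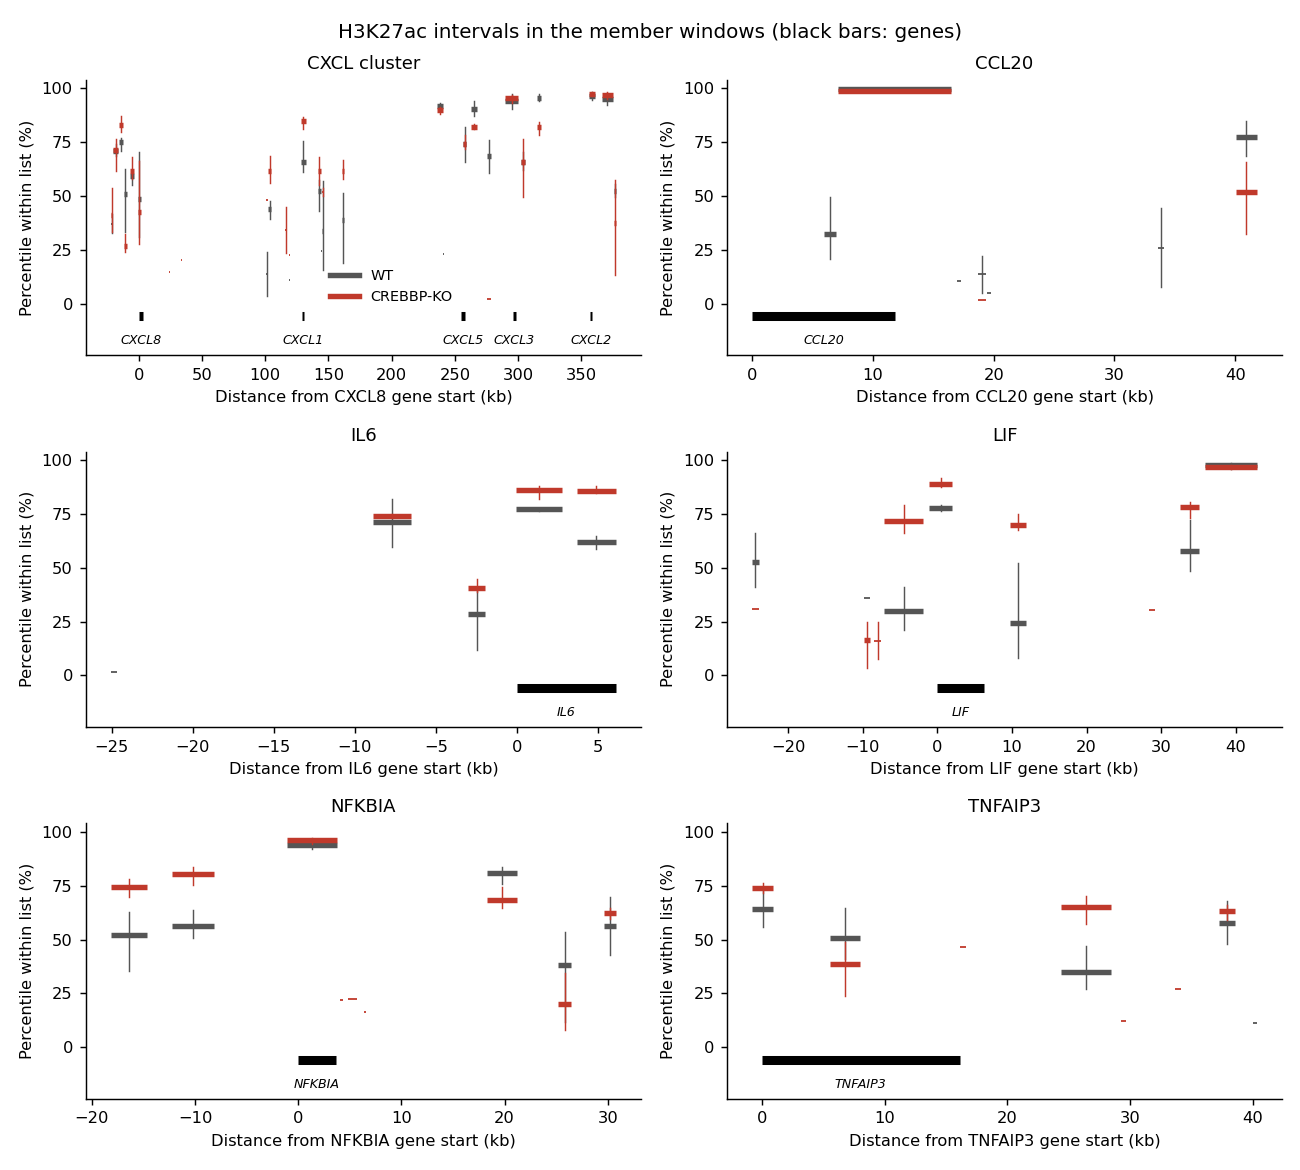
H3K27ac intervals at the 6 loci, with distance from the first annotated start of the gene, or of CXCL8 for the cluster, in kb on the horizontal axis (positive in the direction of transcription) and percentile on the vertical axis. Thick bars are the mean of 3 libraries, thin bars the mean of 1 or 2, vertical lines the range, and black bars the genes. Around LIF the CREBBP-KO bars stand above the WT bars at the promoter and at 3 other tested intervals, whereas around CCL20 the WT bars stand higher.

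Most of the intervals that could not be tested were minor. Of all 72 intervals, 39 had a peak in all 6 libraries, 12 in 2 to 5 libraries and 21 in a single library. Over the 6 loci together, 53, 55 and 56 peaks were called in WT and 57, 57 and 56 in CREBBP-KO (exact permutation test, p = 0.2). The whole lists of CREBBP-KO libraries were longer than those of WT without overlap, and the member loci did overlap in this count. Besides the TNFAIP3 interval, 3 intervals with a peak in all 6 libraries and a fold below the filter did not overlap between genotypes. Those 25.2 kb upstream and 33.1 kb downstream of CXCL1 had higher mean percentiles in CREBBP-KO (43.8 to 61.5 and 38.9 to 61.6), and that 10.6 kb upstream of CXCL8 had a lower one (51.0 to 26.8). None of the 3 was called without the filter (limma, adjusted p = 0.284, 0.174 and 0.0503). Over all tested intervals, 34.2% were higher without overlap and 15.2% lower. These shares were not computed for intervals below the filter, so the count says nothing particular about these loci.

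The wider pathway was described with 76 further genes of NF-kB signalling: ligands and receptors, adaptors and kinases, subunits, inhibitors and other known target genes. A promoter interval was found for 62 and 54 could be tested, of which 9 (16.7%) were higher, 8 (14.8%) lower and 37 not called, where 26.8% and 8.32% of all protein-coding promoter intervals were. The median shift was 0.14, against 0.21 over all 10090 promoter intervals. With ranks by -log10 p, 2 were higher and 7 lower. Without the first WT library the higher count was 5, and without the third WT, the first CREBBP-KO or the third CREBBP-KO library the lower count was 5. The ligand genes TNF, IL1A and IL17A, the receptor genes TLR2, TLR4, TLR5 and CD40, and the chemokine receptor genes CXCR1, CXCR2 and CCR6, through which the member chemokines act, had no promoter peak in any library.

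Receptors and adaptors were called in both directions. The promoter of MYD88, the adaptor of Toll-like and interleukin-1 receptors, had folds of 6.52, 6.71 and 9.24 in WT and 14.6, 14.2 and 14.4 in CREBBP-KO (shift 1.11, SE 0.22, limma, adjusted p = 0.000507). TNFRSF1A, the main receptor for TNF, was also higher (18.0, 13.4 and 16.3 against 28.0, 27.2 and 27.3, shift 0.89), as was LIFR, the receptor for LIF (5.84, 5.88 and 7.85 against 8.48, 8.92 and 11.5, shift 0.71). The TNFRSF1A interval is broad (chr12:6329832-6343616), so its highest fold may lie away from the start. TLR3, the receptor for double-stranded RNA, was lower (12.5, 10.5 and 10.4 against 7.87, 7.79 and 6.45, shift -0.91). MAP3K7, which encodes the kinase TAK1, was lower as well (16.6, 19.4 and 20.5 against 14.1, 13.4 and 16.0, shift -0.75).

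Of the 5 subunit genes, NFKB1, which encodes p105 and p50, was higher (folds of 14.0, 14.8 and 17.6 in WT and 26.0, 25.8 and 28.2 in CREBBP-KO, shift 0.86, SE 0.17, limma, adjusted p = 0.000529), NFKB2 was lower, and RELA, RELB and REL were not called. Among inhibitors and feedback genes, NFKBIZ, which encodes the nuclear IkBzeta, was lower (21.6, 18.3 and 22.1 against 15.1, 16.6 and 15.5, shift -0.82). TNIP3, which encodes an A20-binding inhibitor, had the largest negative shift of the list and met the fold filter in WT alone (7.33, 7.77 and 6.43 against 3.20, 5.19 and 5.25, shift -1.35). The libraries of the genotypes did not overlap in percentile at any of the called receptor, adaptor, kinase, subunit or feedback promoters named. At RELB and REL, which were not called, they overlapped. The TNIP3 promoter spread widely in CREBBP-KO (percentiles 26.9, 63.3 and 62.8).

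**Figure D4:**
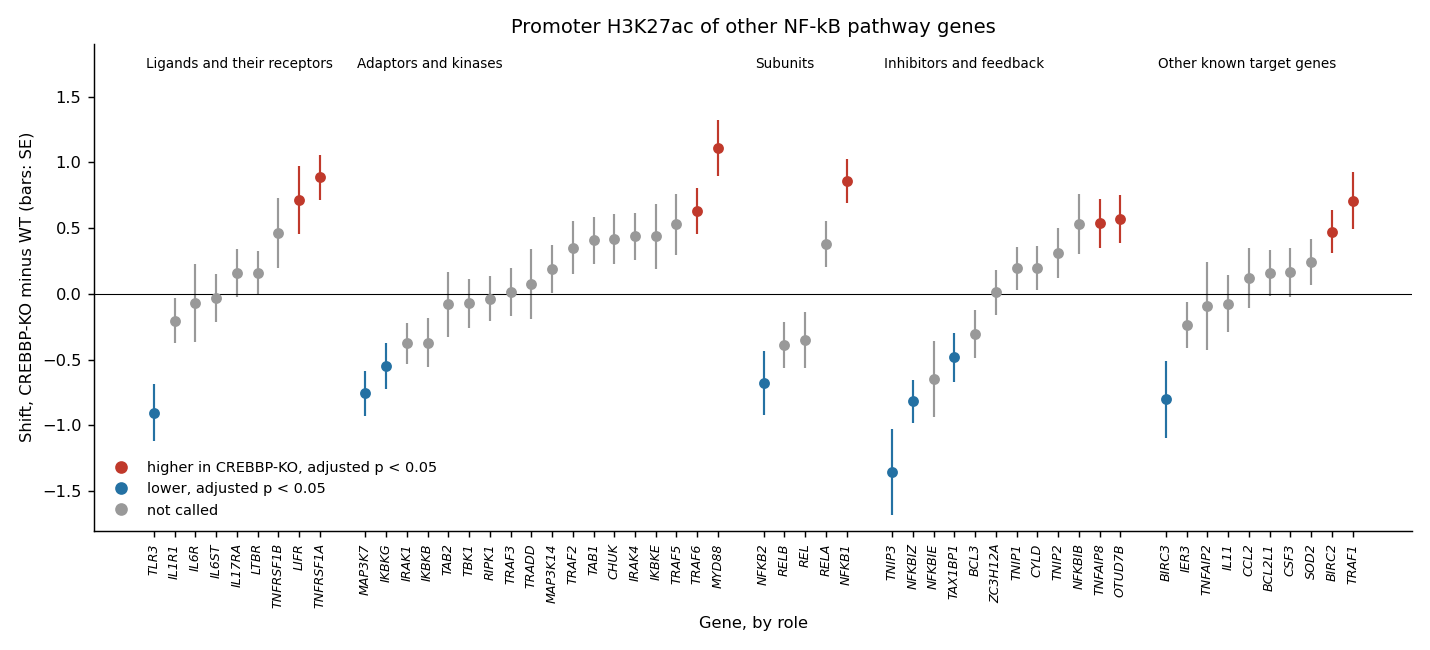
Shift of the 54 tested promoters of other NF-kB pathway genes (vertical axis, normal score of rank, CREBBP-KO minus WT, bars SE), grouped by role and ordered by size within each group. Each of the 5 groups holds at least 1 gene called higher and 1 called lower, and most genes in each were not called.

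One gene of the chromosome 4 cluster outside the set, CXCL6, is given because of its place, and was chosen after its values were seen. Its promoter had a peak in the second WT library alone (fold 1.96), and in all 3 CREBBP-KO libraries (folds 4.90, 4.39 and 3.57), so it could not be tested. IL1B, a cytokine gene of the pathway list, had weak promoter folds, between 3.04 and 4.50 over the 6 libraries.

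The pattern of the CXCL1 promoter over the 6 libraries was most like those of STOML2 (Pearson r = 0.995), AP3D1 (0.993) and HPS3 (0.993) among 10089 other promoter intervals. In all, 98 promoters (0.971%) had an r above 0.95, and with 6 libraries from the same 2 genotypes such values describe the pattern only.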

How the data were processed

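Peaks were called by the authors as narrow peaks with MACS2, for each library separately, in the ChIP-seq pipeline of nf-core (genome hg38); BWA is named in the submitters' processing notes. The methods also describe downsampling of reads; whether it preceded these lists, and which input was the control, is not stated. In the deposited lists the fold is a linear ratio over local background, and significance is held as -log10 of the p-value and of the q-value; the smallest -log10 q was 1.3. The deposited score and summit offsets derive from the same calls; the score was not used. Each library's furthest peaks lay within the hg38 chromosome lengths. The read-based test needs reads and was not repeated.

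Peaks that overlapped or touched were merged. Intervals with a fold of at least 5 in all 3 libraries of a genotype numbered 35542, and the 34864 with a peak in all 6 were fitted with limma 3.58.1 (R 4.3.3, lmFit, eBayes with a trend) and called at an adjusted p under 0.05. For single values an exact permutation test (two-sided) was used. On simulated shifts planted in 200 of the 34864 intervals, the fit recovered 0% at 1 normal-score unit, 73.0% at 1.5 and 87.0% at 2, with 0 to 4 false calls. Annotation was GENCODE release 44. Scripts ran under Python 3.11.15 with pandas 2.3.3, scipy 1.17.1, numpy 2.4.6 and samtools 1.23.1. Motifs were searched on both strands.

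Members, pathway genes, markers and tests were chosen with earlier results of these data known. Every member promoter and every interval past the filter was described, those past the threshold or without overlap with values per library, and up to 8 pathway promoters past the threshold without overlap, by size of shift. Alternative filters, ranks, models, windows and left-out libraries were tried.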

Additional observations from a re-analysis of the deposited data

How the results depend on the processing

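Of the 13 called member intervals, 9 stayed called at an adjusted p under 0.05 in every alternative fit in which they could be tested. These fits changed the filter, rank, model or libraries, and the stricter threshold of 0.0001 is not among them. None of the 13 changed sign in them, and none of the 13 intervals not called became called. The counts of member intervals called higher and lower (8 and 5) were 2 and 3 with a fold of at least 10, which tests fewer intervals, and 0 and 1 at an adjusted p under 0.0001; within 10 kb of the genes the lower count was 2. When each library was left out in turn they ranged from 6 to 8 higher and 5 to 5 lower. The pathway promoters called higher and lower (9 and 8) ranged from 5 to 11 and 5 to 8 when a library was left out. With a fold of at least 10 the lower count was 5, and at an adjusted p under 0.0001 both counts were 0. With ranks by -log10 p the higher count was 2, and the cause was not tested. Same-numbered libraries of the 2 genotypes had correlations of 0.011, 0.014 and 0.028 in their deviations, and differently numbered ones from -0.025 to 0.012. All are small and the labels state no pairing, so these values cannot decide whether the numbers pair the libraries. A replicate block gave 8 and 5 member intervals and 9 and 8 pathway promoters. The depth of each library behind these lists is not known, and shifts of 1 were not recovered in simulated data where only 200 intervals were shifted, so an interval that was not called may still differ. The lists hold 3 libraries per genotype, and a difference between clones and the loss of CREBBP cannot be told apart.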
